A study of Mus musculus with 2 samples.

Results

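Penk encodes proenkephalin, the precursor from which enkephalin peptides are cut. It is 1 gene of the 32245 gene symbols measured, and it was chosen on these data because it leads an activated CD4 T cell group and varies in CD8 T cells. Its levels in those cells are therefore given as a description, with no test. Single-cell RNA was measured in 2 droplet libraries of live CD45-positive immune cells sorted from mouse tumours on day 14 after inoculation, 1 library per group. The Tdg_KO library carries the genotype label Tdg KO, and the Tdg_WT library carries the label WT. Both groups share the Percoll enrichment and the sort. The design names the tumour model subcutaneous KP, while the 2 libraries go by the names KP and KPT. Whether both groups had the same tumour line is not given in the labels. Whether host or tumour cells carry the genotype is not given in the labels, and neither is the number of mice or tumours behind a library. Tdg, the targeted gene, which encodes the repair enzyme thymine DNA glycosylase, had 1391 UMIs (26.5 CPM) in the Tdg_KO library and 995 UMIs (24.99 CPM) in the Tdg_WT library. A UMI (unique molecular identifier) marks an RNA molecule captured once, and CPM scales a gene's UMIs to all UMIs of the same cells. A 3′ tag can lie outside a deleted stretch, and it is not given that the sorted cells carry the genotype. These values therefore do not check the label.

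Proenkephalin is cleaved by prohormone convertases into Met- and Leu-enkephalin, peptides that act on the delta and mu opioid receptors. It is best known from neurons and from chromaffin cells of the adrenal medulla, but its RNA is also made by activated helper T cells and by regulatory T cells of some tissues. In the GENCODE M21 annotation (mm10) Penk is a protein-coding gene on the minus strand of chromosome 4, from 4133531 to 4138819, with 2 annotated transcripts. Libraries of this kind read the 3′ end of a transcript and do not separate the transcripts.

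After filtering, 5693 Tdg_KO cells and 5504 Tdg_WT cells remained, with medians of 6419 and 5378 UMIs per cell. The 8 barcode sequences that both libraries share held 0 Penk UMIs. Cells are not replicates, and with 1 library per group no difference between the groups was tested. Intervals are 95% intervals for counting error only and do not cover variation between mice. Of 37 clusters, built without Penk, 26 were named from marker genes in 20 classes, written as "-like". The other 11 held 20.02% of the Tdg_KO cells and 12.6% of the Tdg_WT cells, and 4 of them carried genes of T cells together with those of phagocytes or B cells in at least 50% of barcodes.

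Penk was measured in 8.68% of the Tdg_KO cells and 7.07% of the Tdg_WT cells, at 104.6 CPM (5470 UMIs) in Tdg_KO and 114.3 CPM (4530 UMIs) in Tdg_WT. Nearly all of this RNA lay in barcodes that also held RNA of the T cell receptor complex. Barcodes with no UMI of Cd3d, Cd3e or Cd3g, which encode CD3 chains of that complex, carried 18 of the Penk UMIs in Tdg_KO (0.329%) and 25 in Tdg_WT (0.552%). Such a CD3 UMI was present in 96.6% of Penk-positive and 65.0% of Penk-negative barcodes in Tdg_KO, and in 93.8% of Penk-positive and 55.9% of Penk-negative barcodes in Tdg_WT. Foxp3, the transcription factor of regulatory T cells, had a UMI in 49.0% of the Penk-positive barcodes in Tdg_KO and 46.8% in Tdg_WT. Penk-positive barcodes were also deeper, with a median of 12159 UMIs against 6181 for Penk-negative ones in Tdg_KO, and 8289 against 5247 in Tdg_WT. The part of depth in these shares was not tested.

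**Figure D1:**
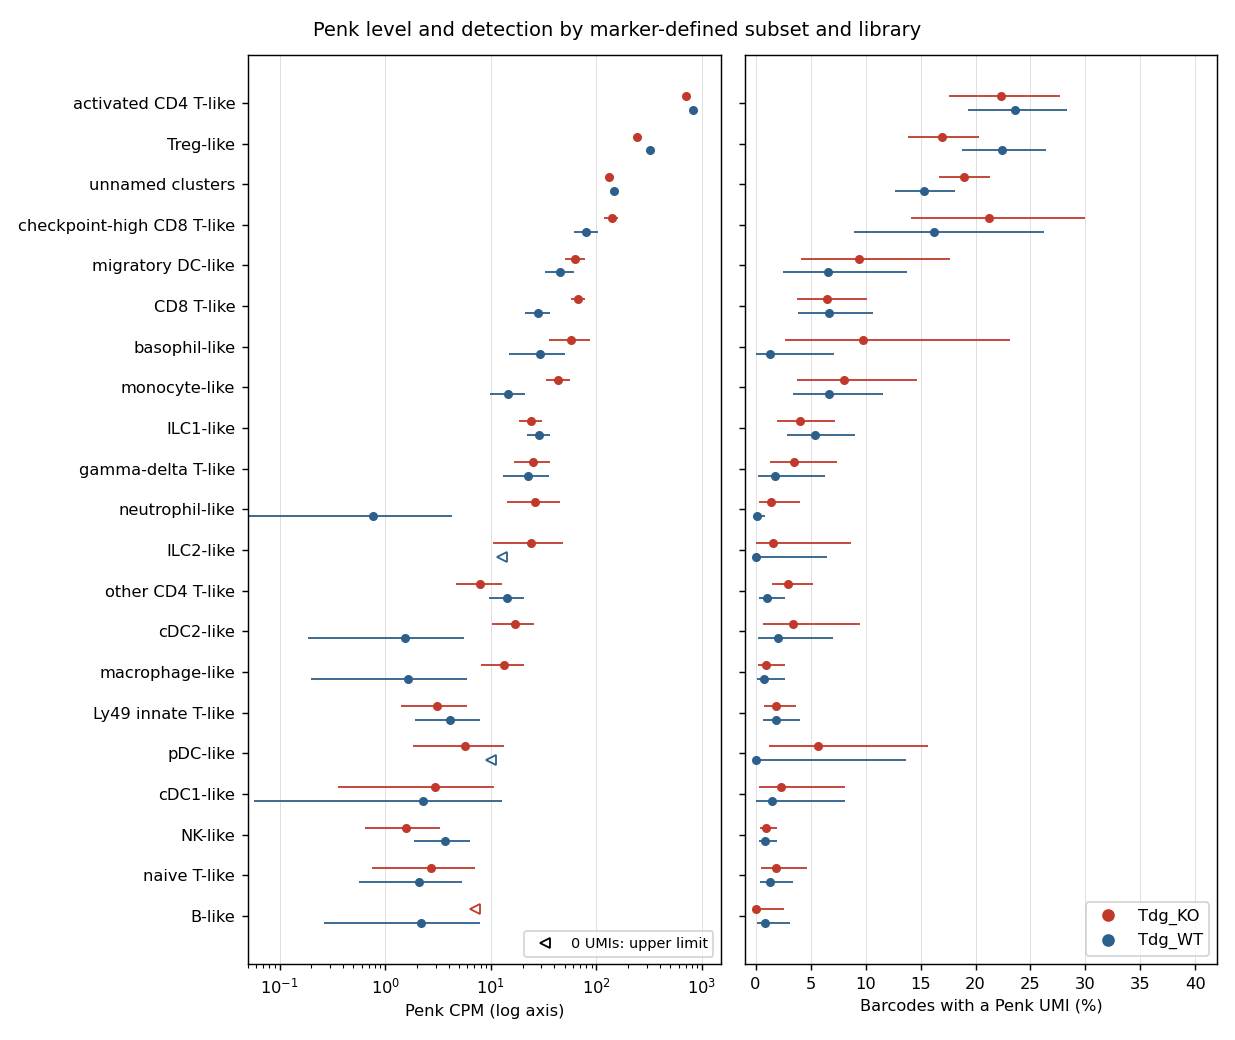
Penk level (left, CPM on a log axis) and share of barcodes with a Penk UMI (right, percent) in each marker-defined subset, Tdg_KO above Tdg_WT, with 95% intervals for counting error; open triangles mark upper limits where no UMI was found. Activated CD4 T-like cells, at 706 CPM in Tdg_KO and 820 CPM in Tdg_WT, lie highest in both libraries, and NK-like cells lie at 1.59 and 3.65 CPM.

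The highest level was in activated CD4 T-like cells, a group with Cd4 UMIs in 84.4% of Tdg_KO and 83.2% of Tdg_WT barcodes. Tnfsf11, which encodes the TNF family cytokine RANKL, was found in 72.0% and 78.0% of them in Tdg_KO and Tdg_WT, and Foxp3 in 4.96% and 0.824%. Penk stood at 706 CPM (interval 666 to 747, 1181 UMIs in 282 cells) in Tdg_KO and at 820 CPM (782 to 860, 1725 UMIs in 364 cells) in Tdg_WT. A UMI was found in 22.3% of these barcodes in Tdg_KO (17.6 to 27.7) and 23.6% in Tdg_WT (19.4 to 28.3). The group made up 4.95% of Tdg_KO and 6.61% of Tdg_WT cells, and it held 21.6% of the Penk UMIs of the Tdg_KO library and 38.1% of those of the Tdg_WT library.

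Treg-like cells, with Foxp3 UMIs in 80.9% of Tdg_KO and 80.7% of Tdg_WT barcodes, came second. Penk stood there at 243 CPM (228 to 259, 998 UMIs in 550 cells) in Tdg_KO and 325 CPM (305 to 345, 1019 UMIs in 482 cells) in Tdg_WT. The share of barcodes with a UMI was 16.9% in Tdg_KO (13.9 to 20.3) and 22.4% in Tdg_WT (18.8 to 26.4). Treg-like barcodes with a UMI of Klrg1, Areg or Il1rl1, genes of effector regulatory T cells in tissues, had 262 CPM in Tdg_KO (992 UMIs in 486 cells) and 332 CPM in Tdg_WT (960 UMIs in 426 cells). Those without had 18.8 CPM in Tdg_KO (6 UMIs in 64 cells) and 240 CPM in Tdg_WT (59 UMIs in 56 cells). The split also parts the cells by depth, since the median was 6131 UMIs with and 4111 without in Tdg_KO, and 5196 with and 3500 without in Tdg_WT. After thinning to 2000 UMIs per cell the shares were 13.1% with and 7.02% without in Tdg_KO, and 17% with and 8.70% without in Tdg_WT, and their intervals overlapped in both libraries.

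CD8 T-like cells fell into a checkpoint-high group and another group. The checkpoint-high cells carried Pdcd1 (PD-1) in 92.0% of Tdg_KO and 81.2% of Tdg_WT barcodes, and Lag3, another inhibitory receptor gene, in 85.8% and 81.2%. The other CD8 T-like cells also carried these genes, Pdcd1 in 63.5% and 60.1% of Tdg_KO and Tdg_WT barcodes and Lag3 in 43.7% and 44.5%. By CPM Pdcd1 did not keep that order in Tdg_WT, at 244 in the checkpoint-high and 304 in the other CD8 T-like cells, against 308 and 255 in Tdg_KO. Ctla4 did not keep it in Tdg_KO, at 346 and 362 CPM, but did in Tdg_WT, at 431 and 388. Lag3 kept it in both, at 284 and 123 CPM in Tdg_KO and 316 and 149 in Tdg_WT. Havcr2, Entpd1 and Cd244a, also listed as checkpoint genes, fell short of 50 UMIs between the libraries in the checkpoint-high cells. Those cells had 1237845 UMIs of all genes in Tdg_KO and 797692 in Tdg_WT. In the other CD8 T-like cells Havcr2 stood at 36.1 CPM in Tdg_KO and 50.2 in Tdg_WT, Entpd1 at 41.3 and 37.9, and Cd244a at 43.9 and 35.8. Taking both libraries together, these genes did not keep the order either. Cd160 and Cd200, from the same list, kept it in both libraries. Ccr7, a chemokine receptor gene, set the groups further apart, at 1410 and 97.8 CPM in Tdg_KO and 1636 and 77.8 in Tdg_WT. The name is therefore a label that rests on some checkpoint genes only. Penk in the checkpoint-high cells stood at 139 CPM in Tdg_KO (119 to 161, 172 UMIs in 113 cells) and 80.2 CPM in Tdg_WT (61.8 to 102, 64 UMIs in 80 cells), with a UMI in 21.2% and 16.3% of barcodes. In the other CD8 T-like cells it stood at 67.0 CPM in Tdg_KO (56.8 to 78.4, 154 UMIs in 263 cells) and 28.2 CPM in Tdg_WT (21.2 to 36.6, 55 UMIs in 238 cells), with a UMI in 6.46% and 6.72% of barcodes. The checkpoint-high cells were deeper, with medians of 9825 UMIs in Tdg_KO and 8643 in Tdg_WT, against 7580 and 6974 in the other CD8 T-like cells. After thinning, Penk was found in 16.1% of checkpoint-high barcodes in Tdg_KO and 10.0% in Tdg_WT, and in 3.11% and 3.49% of the others.

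The remaining lymphocytes had little Penk. Other CD4 T-like cells had 7.95 CPM in Tdg_KO (17 UMIs in 375 cells) and 14.3 CPM in Tdg_WT (30 UMIs in 375 cells), of which 1 Tdg_WT barcode gave 22 UMIs. Gamma-delta T-like cells had 25.2 CPM in Tdg_KO and 22.4 CPM in Tdg_WT. Ly49 innate T-like cells had 3.10 and 4.15 CPM, and naive T-like cells 2.74 and 2.09 CPM, in Tdg_KO and Tdg_WT. In NK-like cells 7 of 739 Tdg_KO barcodes (0.947%) and 5 of 600 Tdg_WT barcodes (0.833%) held a Penk UMI, at 1.59 and 3.65 CPM. In Tdg_WT 8 of the 12 NK-like UMIs lay in 1 barcode, which also had 4 Cd3e, 1 Cd4 and 55 Ccl1 UMIs. B-like and neutrophil-like cells, which should lack the gene, give the background. B-like cells held 0 Penk UMIs in 139 Tdg_KO cells, which allows a share of up to 2.16%, and 2 UMIs in 231 Tdg_WT cells (0.866%). Neutrophil-like cells had a UMI in 1.39% of Tdg_KO barcodes (3 of 216) and 0.160% of Tdg_WT barcodes (1 of 624). Median depths were 3528 UMIs in Tdg_KO and 3710 in Tdg_WT for B-like cells, and 1893 and 1639 for neutrophil-like cells, against 5304 and 4950 for NK-like cells. The NK-like share is within the range of these background shares and is read as background. In summed CPM the neutrophil-like cells stood at 26.5 in Tdg_KO, with 11 of 13 UMIs in 1 barcode, and at 0.765 in Tdg_WT. In Tdg_KO the other CD4, gamma-delta, Ly49 innate and naive T-like levels did not exceed that value, so CPM does not part them from background there. In Tdg_WT naive T-like cells, at 2.09 CPM, did not exceed B-like cells, at 2.17 CPM.

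In migratory DC-like, monocyte-like and ILC1-like cells the Penk UMIs lay mainly in barcodes with T cell RNA. Migratory DC-like cells reached 63.03 CPM in Tdg_KO (85 UMIs, 8 of 85 barcodes) and 45.4 CPM in Tdg_WT (43 UMIs, 6 of 91 barcodes). Of those positive barcodes, 7 of 8 in Tdg_KO and 6 of 6 in Tdg_WT also held a CD3 gene UMI, compared with 40.3% and 30.6% of the Penk-negative ones. Their median depth was 32805 UMIs in Tdg_KO and 20366 in Tdg_WT, against 8307 and 8047 for Penk-negative barcodes. The barcode with most Penk in Tdg_KO, 25 UMIs, had 10 Cd3e, 3 Cd4 and 23 Cd8a UMIs. cDC1-like cells had 2 Penk UMIs in Tdg_KO and 1 in Tdg_WT, cDC2-like cells 20 and 2, and pDC-like cells 5 and 0. Basophil-like cells had 21 UMIs in 4 barcodes of Tdg_KO and 12 in 1 barcode of Tdg_WT, macrophage-like cells 19 and 2 UMIs, and ILC2-like cells 8 UMIs in 1 barcode of Tdg_KO and 0 in Tdg_WT. Monocyte-like cells had 43.5 CPM in Tdg_KO and 14.6 CPM in Tdg_WT, and CD3-positive barcodes held 61 of the 62 Penk UMIs in Tdg_KO and 25 of the 30 in Tdg_WT. In ILC1-like cells, at 24.1 CPM in Tdg_KO and 28.5 CPM in Tdg_WT, CD3-positive barcodes held 59 of 62 and 60 of 66 Penk UMIs. Most of these lay in 2 barcodes per library, with 42 and 10 UMIs in Tdg_KO and 33 and 18 in Tdg_WT. The richest one in Tdg_WT had 0 Cd3e and 3 Ncr1 UMIs. Median depth was 12519 UMIs in Penk-positive and 9596 in Penk-negative ILC1-like barcodes of Tdg_KO, and 11963 and 8366 in Tdg_WT. In neutrophil-like cells of Tdg_KO, 11 of the 13 UMIs lay in 1 barcode that also had 2 Cd3e, 1 Cd4 and 3 Foxp3 UMIs. Whether these barcodes hold more than 1 cell was not tested, since the doublet caller used marked 0 barcodes in Tdg_KO and 1 in Tdg_WT.

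**Figure D2:**
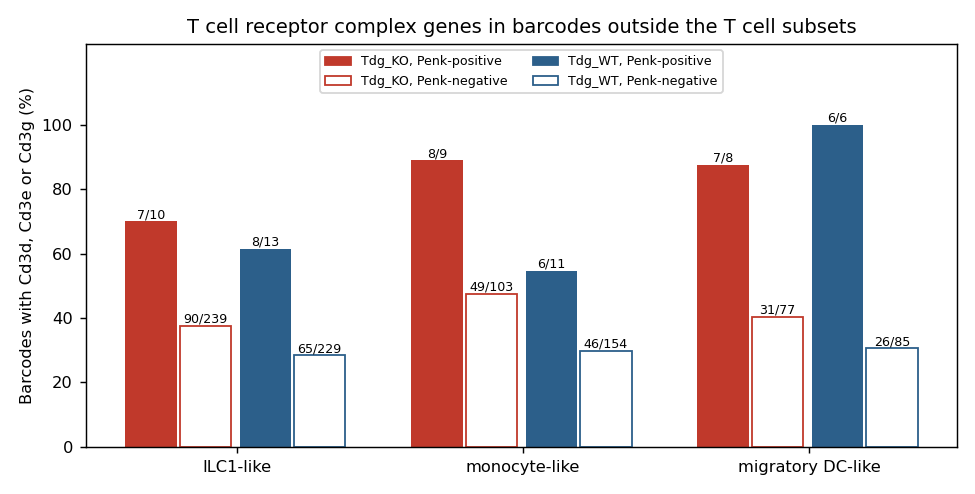
Share of barcodes with a UMI of Cd3d, Cd3e or Cd3g (percent) in 3 subsets outside the T cells, for Penk-positive (filled) and Penk-negative (open) barcodes, Tdg_KO left of Tdg_WT; the numbers above the bars are barcodes with such a UMI over all barcodes. The share is higher in Penk-positive barcodes in each of the 3 subsets and both libraries, with 7 of 8 and 6 of 6 in migratory DC-like cells.

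The unnamed clusters held 47.6% of the Penk UMIs of the Tdg_KO library and 31.7% of those of the Tdg_WT library, at 132 and 146 CPM. Their cells were deep, with medians of 13766 UMIs in Tdg_KO and 11844 in Tdg_WT. One cluster led by Il2 and Foxp3, where 65.9% of barcodes held genes of 2 lymphocyte subsets, had Penk in 34.4% of 183 Tdg_KO barcodes and 36.6% of 93 Tdg_WT barcodes, at 218.7 and 324 CPM. In order of level, the intervals of the first 3 named subsets (activated CD4 T-like, Treg-like and checkpoint-high CD8 T-like) did not overlap within either library. Neither did the interval of checkpoint-high CD8 T-like cells and that of the next subset, CD8 T-like in Tdg_KO and migratory DC-like in Tdg_WT. From there down each named subset's interval overlapped that of its neighbour in the order, except in Tdg_WT between other CD4 T-like (lower bound 9.64 CPM) and Ly49 innate T-like cells (upper bound 7.87 CPM).

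Penk RNA was spread unevenly between barcodes of one subset. Among activated CD4 T-like cells the Penk-positive barcodes carried a median of 12 UMIs in Tdg_KO and 7 in Tdg_WT, with highest values of 100 and 332. The 33 Tdg_KO and 36 Tdg_WT barcodes with at least 10 Penk UMIs held 90.5% and 90.4% of the subset's Penk. The 5 richest barcodes alone held 31.9% in Tdg_KO and 44.9% in Tdg_WT. In Tdg_WT these 5 barcodes had 332, 173, 132, 79 and 58 Penk UMIs, and in Tdg_KO 100, 91, 71, 64 and 51. The Tdg_WT barcode with 332 Penk UMIs had 7010 UMIs in all, with 2 Cd3e, 1 Cd4 and 0 Foxp3 UMIs and 0 of the phagocyte genes checked. Depth differed little here, at medians of 5523 UMIs in Penk-positive and 5146 in Penk-negative barcodes of Tdg_KO, and 5773 and 5342 in Tdg_WT.

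Treg-like cells showed the same unevenness, with 79.5% of the Penk UMIs in 25 barcodes of at least 10 UMIs in Tdg_KO and 76.7% in 32 such barcodes in Tdg_WT. Their richest barcodes held 79 and 85 UMIs. After thinning to 2000 UMIs per cell, the variance over the mean of Penk across activated CD4 T-like cells was 11.04 in Tdg_KO, 9th of 1524 genes ranked, and 32.1 in Tdg_WT, 5th of 1846. In Treg-like cells it was 14.4 in Tdg_KO, 6th of 2836 genes, and 12.1 in Tdg_WT, 2nd of 2445. The median over all genes ranked lay between 1.09 and 1.12 in these 4 sets of cells. Ccl1, a T cell chemokine gene, was first in activated CD4 T-like cells of both libraries. Penk and Ccl1 did not peak in the same barcodes throughout, since the Tdg_WT barcode with most Penk had 0 Ccl1 UMIs and the Tdg_KO barcode with most had 592. That Tdg_KO barcode had 38266 UMIs in all, against a median of 5167 for the subset, and 3 UMIs of the NK marker Ncr1. Whether it holds more than 1 cell was not tested.

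**Figure D3:**
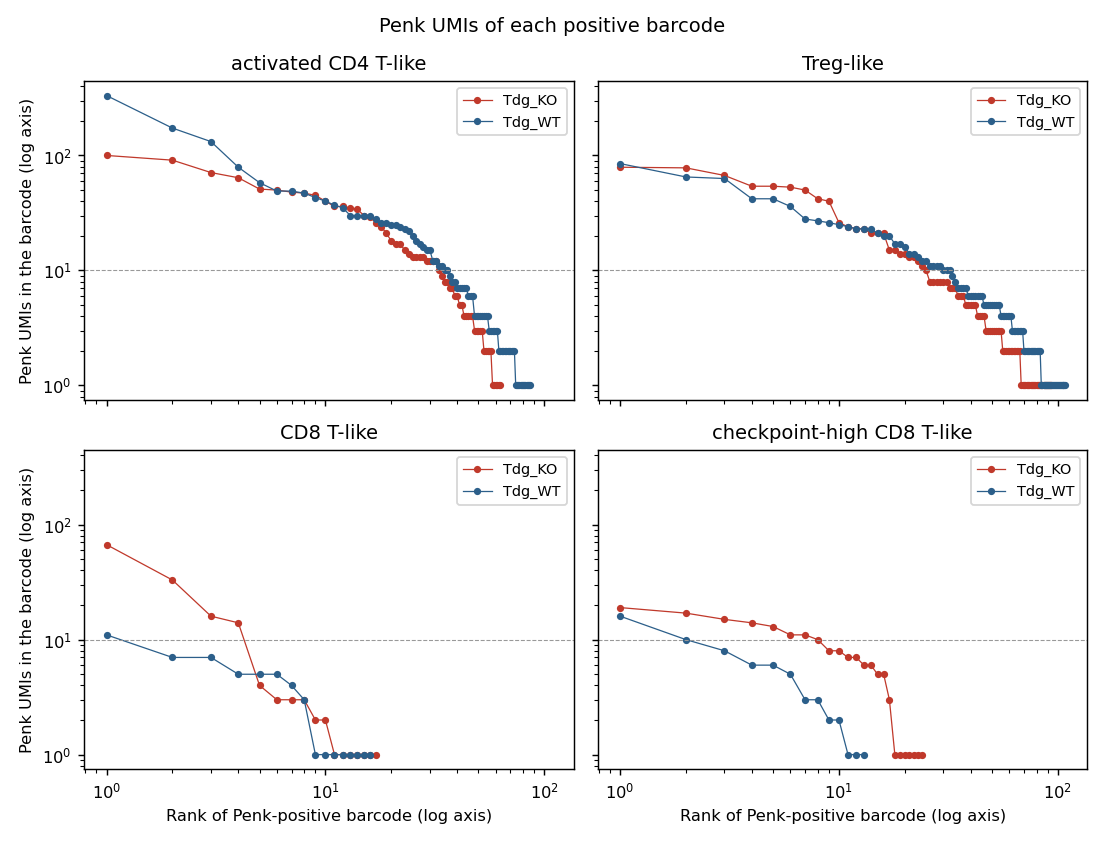
Penk UMIs of every Penk-positive barcode against its rank (both axes log) in 4 T cell subsets, Tdg_KO in red and Tdg_WT in blue; the dashed line marks 10 UMIs. In activated CD4 T-like cells the curves part at the first 3 ranks (100, 91 and 71 UMIs in Tdg_KO, 332, 173 and 132 in Tdg_WT), and in CD8 T-like cells at the first 4.

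The ratio of Penk between the libraries lay on different sides of 1 in the CD4 and CD8 groups. In activated CD4 T-like cells the level in Tdg_KO was 0.860 times that in Tdg_WT (0.798 to 0.927), and in Treg-like cells 0.749 times (0.686 to 0.819). In CD8 T-like cells it was 2.38 times (1.74 to 3.30), and in checkpoint-high CD8 T-like cells 1.73 times (1.29 to 2.35). A fold of 1.5 was used to call a gene higher or lower. Past it lay 5.04% of genes higher in Tdg_KO and 2.63% lower in CD8 T-like cells, and 6.13% higher and 2.99% lower in checkpoint-high CD8 T-like cells. As higher lay past it 7.15% of genes in activated CD4 T-like cells and 3.13% in Treg-like cells, as lower 2.58% and 2.57%, and Penk was not among them. Penk was chosen with its values in these cells known, so nothing is read from these counts.

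A few barcodes set several of these ratios. In CD8 T-like cells the Tdg_KO barcodes with most Penk held 67, 33, 16 and 14 UMIs, and the highest Tdg_WT barcode held 11. The first of them, 43.5% of the subset's Penk in Tdg_KO, had 21314 UMIs in all, with 10 Cd8a and 2 Cd4 UMIs. Without the 5 richest barcodes of each library both libraries kept 20 Penk UMIs and the ratio was 0.859, on the other side of 1. With every cell weighted equally it was 1.10, and with CD8 cells gated on marker UMIs instead of clusters, 0.722. The share of CD8 T-like barcodes with a UMI differed by -0.26 percentage points (Tdg_KO minus Tdg_WT, interval -4.85 to 4.18). In checkpoint-high CD8 T-like cells the richest barcodes held 19, 17 and 15 UMIs in Tdg_KO and 16, 10 and 8 in Tdg_WT. Without the 5 richest of each library the ratio there was 3.37, on the same side of 1, with 94 and 18 Penk UMIs left in Tdg_KO and Tdg_WT. The difference in shares there was 4.99 points (-6.62 to 15.6), so a difference in detection was not measurable at this number of cells.

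The ratio in activated CD4 T-like cells was 0.994 without the richest barcode of each library and 1.09 without the 5 richest, while the share of barcodes with a UMI differed by -1.29 points (-7.72 to 5.33). In Treg-like cells the ratio stayed below 1 under every alternative tried, between 0.703 and 0.907, and the share of barcodes differed by -5.50 points (-10.4 to -0.65). Median depth of the Treg-like cells was 5843 UMIs in Tdg_KO and 5011 in Tdg_WT. After thinning, the shares in Treg-like cells were 12.5% in Tdg_KO (9.76 to 15.6) and 16.1% in Tdg_WT (12.9 to 19.9), with overlapping intervals.

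**Figure D4:**
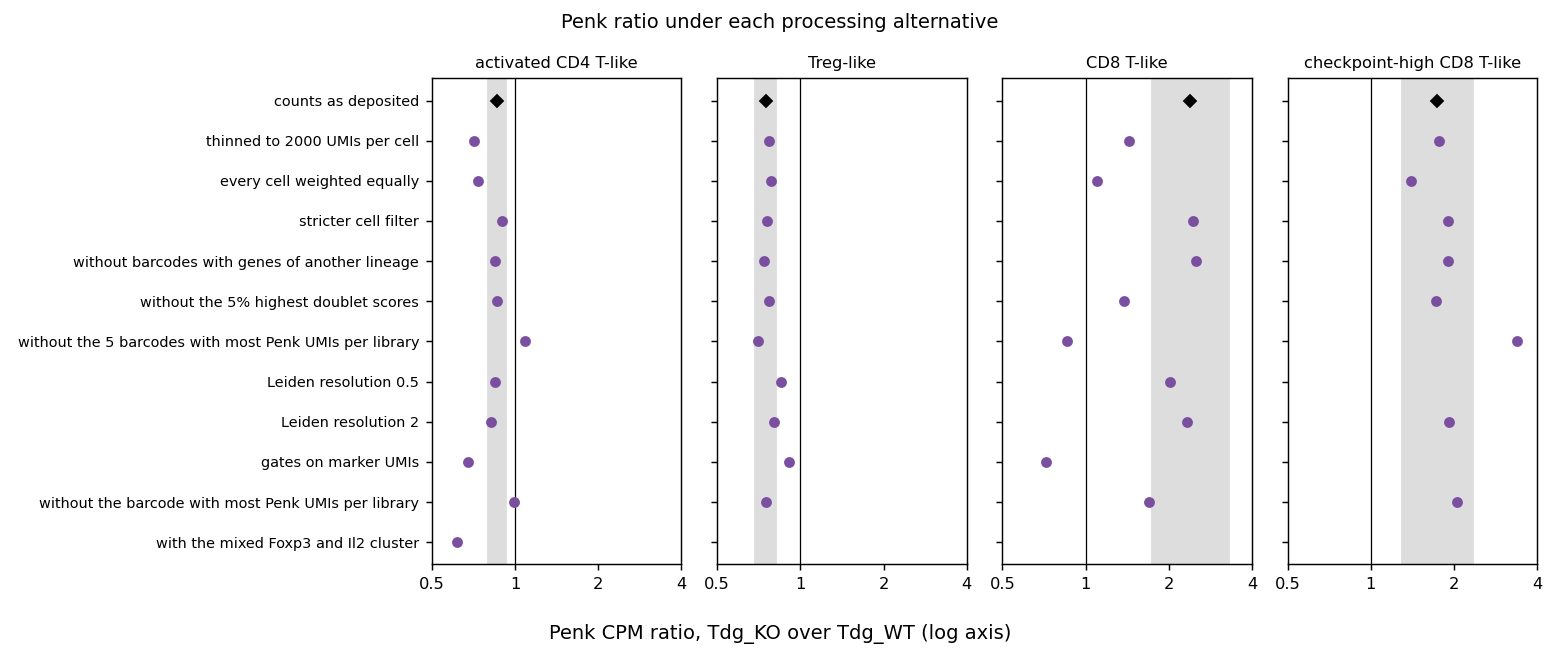
Ratio of Penk CPM, Tdg_KO over Tdg_WT (log axis), in 4 T cell subsets for the counts as deposited (black diamond) and each alternative (purple points); the grey band is the 95% counting interval of the counts as deposited and the line marks a ratio of 1. In Treg-like cells every point lies below 1, whereas in CD8 T-like cells they run from 0.722 to 2.52.

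The other genes of the enkephalin pathway were followed from lists that order them by role. Of the opioid precursors other than Penk, prodynorphin (Pdyn) had 0 UMIs in both libraries, prepronociceptin (Pnoc) 2 in Tdg_KO and 0 in Tdg_WT, and pro-opiomelanocortin (Pomc) 177 in Tdg_KO and 129 in Tdg_WT (3.38 and 3.25 CPM over all cells). The opioid receptor genes were nearly undetected. The mu receptor Oprm1 had 4 UMIs in Tdg_KO and 6 in Tdg_WT, the delta receptor Oprd1 6 and 4, the kappa receptor Oprk1 1 and 0, and the nociceptin receptor Oprl1 0 and 1. The few Oprd1 UMIs gave the highest level in migratory DC-like cells, at 3.71 CPM in Tdg_KO and 4.22 CPM in Tdg_WT. Ackr3, an atypical chemokine receptor that in humans also binds opioid peptides, had 14 and 28 UMIs. Taking both libraries together, its level was highest in B-like cells, at 1.91 CPM in Tdg_KO and 7.61 CPM in Tdg_WT. Few Ackr3 UMIs stand behind these values, since the B-like cells had 524690 UMIs of all genes in Tdg_KO and 920409 in Tdg_WT. Ogfr, which encodes a receptor for Met-enkephalin unrelated to the classical ones, was found at 43.0 CPM in Tdg_KO and 42.6 CPM in Tdg_WT over all cells, and in the Treg-like cells at 51.7 and 47.8 CPM.

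Of the enzymes that mature the precursor, Pcsk1, prohormone convertase 1, had its highest level in Treg-like cells, with 40.0 CPM in Tdg_KO (164 UMIs) and 84.5 CPM in Tdg_WT (265 UMIs). The ratio was 0.474 (0.387 to 0.578). Where Penk was highest, in activated CD4 T-like cells, Pcsk1 had 3 UMIs in Tdg_KO and 0 in Tdg_WT. Pcsk2, the other neuroendocrine convertase, had 0 UMIs in both libraries. Furin, a convertase of the secretory pathway, stood at 375 CPM in activated CD4 T-like cells of Tdg_KO and 406 CPM in those of Tdg_WT, and at 116 and 93.7 CPM in Treg-like cells. Cpe, the carboxypeptidase that trims the cut peptides in endocrine cells, had 29 UMIs in Treg-like cells of Tdg_KO and 25 in those of Tdg_WT, against 1 and 0 in activated CD4 T-like cells. Cpd, a related carboxypeptidase of the trans-Golgi, was found in both subsets, at 35.3 CPM in Tdg_KO and 37.6 CPM in Tdg_WT in activated CD4 T-like cells and 68.3 and 78.4 CPM in Treg-like cells. Between the libraries, 1 of the 6 maturation genes measured in Treg-like cells lay past 1.5-fold, Pcsk1, which was lower in Tdg_KO. Of all genes there, 2.57% were lower and 3.13% higher. In activated CD4 T-like cells 0 of the 3 measured lay past it, where 7.15% of all genes were higher and 2.58% lower.

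Of the peptidases that break enkephalins down, neprilysin (Mme) had 9 UMIs in Tdg_KO and 0 in Tdg_WT. Aminopeptidase N (Anpep) was highest in cDC1-like cells, at 77.2 CPM in Tdg_KO and 68.4 CPM in Tdg_WT. Angiotensin-converting enzyme (Ace) was highest in monocyte-like cells, at 49.1 and 60.4 CPM. Dpp3, a dipeptidyl peptidase that can cut enkephalins, stood at 31.9 CPM in Tdg_KO and 31.2 CPM in Tdg_WT in Treg-like cells. Lnpep, also listed, stood at 151 CPM in Tdg_KO and 142 CPM in Tdg_WT in activated CD4 T-like cells, and at 118 and 114 CPM in Treg-like cells. Npepps stood at 54.4 and 40.9 CPM in activated CD4 T-like cells, and at 35.6 and 40.5 CPM in Treg-like cells. None of the 3 breakdown genes measured in activated CD4 T-like cells and none of the 3 in Treg-like cells lay past 1.5-fold between the libraries. Of all genes, 7.15% were higher in Tdg_KO and 2.58% lower in activated CD4 T-like cells, and 3.13% and 2.57% in Treg-like cells. Of the 16 other secreted peptide genes listed, Vip, Nmu, Tac1, Sst, Nts and Grp had 0 UMIs in both libraries. Nmb, neuromedin B, was found in activated CD4 T-like cells at 53.2 CPM in Tdg_KO and 57.1 CPM in Tdg_WT. Calca, the gene of calcitonin gene-related peptide, was highest in ILC2-like cells, a class named with Calca among its markers, at 440 and 482 CPM. Only these 2 genes of the list reached the UMI limit in activated CD4 T-like and in Treg-like cells. Beside the shares of all genes above, Calca lay past 1.5-fold in both subsets, higher in Tdg_KO. It stood at 30.5 CPM against 10.9 CPM in Tdg_WT in activated CD4 T-like cells, and at 11.9 against 5.10 CPM in Treg-like cells. Nmb lay past the fold in Treg-like cells only, lower at 37.6 CPM in Tdg_KO and 61.2 CPM in Tdg_WT. With 2 genes measured, nothing is read from these counts.

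Genes found with Penk in the same barcodes were ranked in the subsets that had at least 50 Penk-positive barcodes in each library, activated CD4 T-like and Treg-like cells. Cells were thinned to 2000 UMIs, and the share of barcodes with a gene was compared between Penk-positive and Penk-negative barcodes within each library. Penk status was taken from the counts as deposited. Among activated CD4 T-like cells 63 Penk-positive Tdg_KO and 82 Penk-positive Tdg_WT barcodes were deep enough to be thinned. Of 2307 genes found in at least 10% of all barcodes of each library, 0.91% were at least 1.5-fold higher with Penk in both libraries and 0.737% at least 1.5-fold lower. In Treg-like cells 92 and 104 Penk-positive barcodes were deep enough, and the shares of 2480 genes were 0.565% and 0.524%. The ranking had another filter, since a gene needed to reach 10% of the Penk-positive barcodes only. All 10 first genes in activated CD4 T-like cells, and Pcsk1 and Anapc1 in Treg-like cells, fell short of 10% of all barcodes in a library, so they entered through the Penk-positive barcodes and stand outside the genes counted in these shares. This filter favours genes with a higher share beside Penk, and the values below are a description that supports no association.

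Pcsk1, the convertase described above, stood first in this ranking in Treg-like cells. It was found in 11.96% of Penk-positive and 4.57% of Penk-negative barcodes in Tdg_KO, and in 30.8% of Penk-positive and 10.2% of Penk-negative barcodes in Tdg_WT. Tff1, a secreted trefoil peptide, was found in 18.5% against 9.36% in Tdg_KO and 21.2% against 10.8% in Tdg_WT. The other 3 first genes were Anapc1, a subunit of the anaphase-promoting complex, Ncmap, a myelin-associated membrane protein, and Ybx3, a Y-box nucleic acid binding protein, with lower log2 ratios of the 2 libraries of 1.07, 0.94 and 0.83. Ranked by summed CPM instead, 2 of the 5 were again among the first 5, Pcsk1 and Tff1, while the lower log2 ratios of Ncmap and Ybx3 were 0.02 and 0.22.

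The first 10 genes in activated CD4 T-like cells were found in 10.98% to 20.6% of Penk-positive barcodes. Lag3, the inhibitory receptor, was found in 17.5% of Penk-positive and 4.74% of Penk-negative barcodes in Tdg_KO, and in 17.1% and 8.46% in Tdg_WT. Nrgn, neurogranin, a calmodulin-binding protein, was found in 20.6% and 5.21% in Tdg_KO, and in 15.9% and 7.72% in Tdg_WT. Map3k7, the kinase TAK1 of NF-kappaB signalling, led the ranking with 14.3% and 3.79% in Tdg_KO and 10.98% and 4.04% in Tdg_WT. The others were Gpm6b and Cd9, membrane proteins of the proteolipid and tetraspanin families, Gpr108, Rnf114, a RING finger ubiquitin ligase, Zfp87, Clns1a and Lgals7, galectin 7. Of the 10, 4 were again among the first 10 by summed CPM, Map3k7, Gpm6b, Nrgn and Lag3, and the lower log2 ratios of Gpr108 and Rnf114 were -0.0156 and 0.08 there. Among the lowest genes were Snx3, Gimap6, Mapre1 and Cops9. Gimap6, a GTPase of lymphocytes, was found in 19.05% of Penk-positive and 41.7% of Penk-negative barcodes in Tdg_KO, and in 24.4% and 32.7% in Tdg_WT. Cops9, a subunit of the COP9 signalosome, was lower with Penk in Tdg_KO, at 17.5% and 36.5%, but not in Tdg_WT, at 32.9% and 31.3%.

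**Figure D5:**
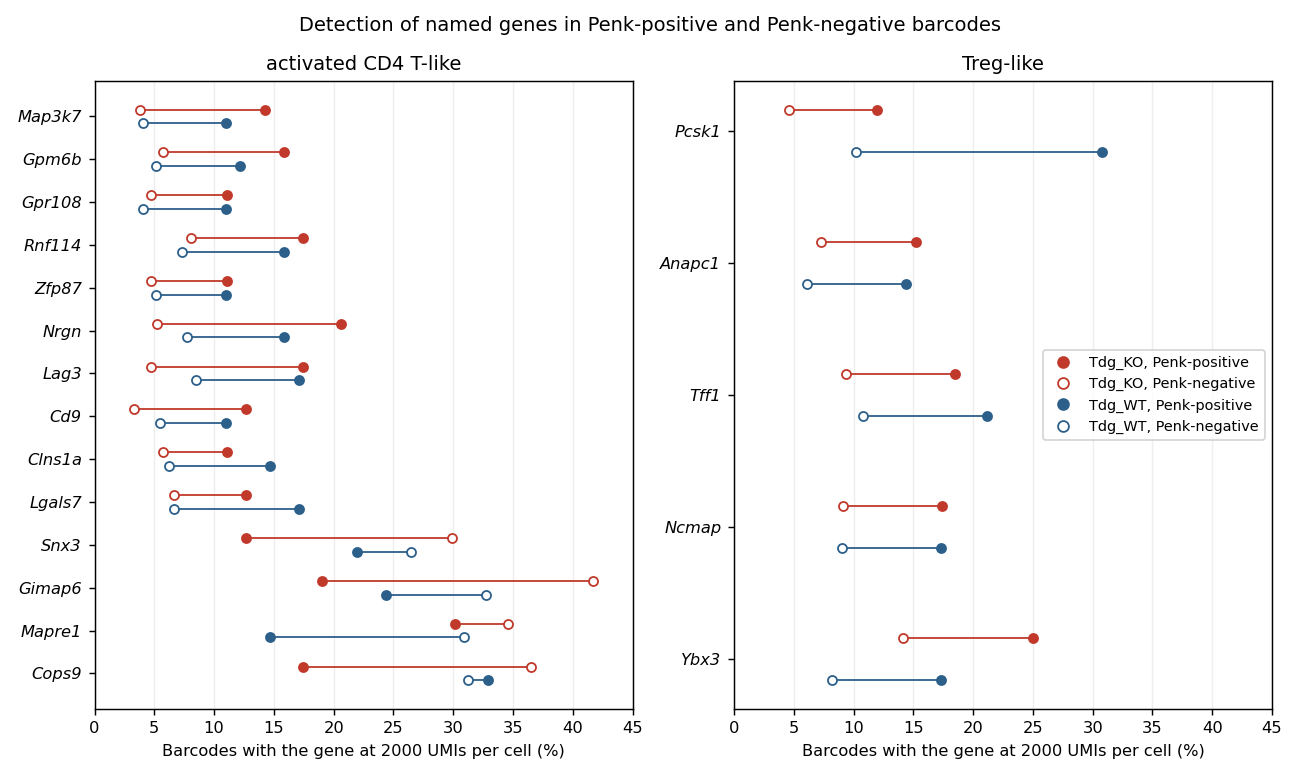
Share of barcodes (percent, 2000 UMIs per cell) with each named gene in Penk-positive (filled) and Penk-negative (open) barcodes of activated CD4 T-like and Treg-like cells, Tdg_KO in red above Tdg_WT in blue. Pcsk1 in Treg-like cells reaches 11.96% in Penk-positive barcodes of Tdg_KO and 30.8% in those of Tdg_WT, against 4.57% and 10.2% in Penk-negative ones.

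Over the activation lists, genes found in at least 10% of all barcodes of each library were counted, which leaves out Lag3. Among activated CD4 T-like cells, none of the 9 TNF family costimulation genes measured, the 12 antigen-response transcription factors, the 7 AP-1 genes, the 2 checkpoint genes, the 6 cytokine and chemokine genes or the 5 naive and memory genes was at least 1.5-fold higher or lower in both libraries. Of all genes counted there, 0.91% were that much higher and 0.737% lower, so nothing is read from counts of 0 in lists this short. The median log2 ratio of the transcription factors was 0.02 in Tdg_KO and 0.03 in Tdg_WT, beside 0.01 and 0.04 for all genes. Tnfsf8, which encodes the CD30 ligand, was found in 38.1% of Penk-positive and 28.0% of Penk-negative barcodes in Tdg_KO and in 50% and 36.0% in Tdg_WT. From the same TNF family list, Tnfrsf4 and Tnfsf11 also had higher shares with Penk in both libraries, while Cd40lg, Icos and Tnfrsf1b had lower ones. Cd40lg was found in 14.3% of Penk-positive and 18.5% of Penk-negative barcodes in Tdg_KO and in 9.76% and 20.6% in Tdg_WT. Ccl1 was found in 30.2% and 13.7% in Tdg_KO, but in 31.7% and 27.9% in Tdg_WT. Among Treg-like cells the count was 0 for 7 TNF family genes, 12 transcription factors, 7 AP-1, 2 checkpoint and 3 cytokine genes. Of 7 naive and memory genes 1 lay past the fold there, S1pr1, the receptor for lymphocyte exit from tissue, with 8.70% of Penk-positive and 15.3% of Penk-negative barcodes in Tdg_KO and 7.69% and 16.4% in Tdg_WT. Of all genes counted in Treg-like cells, 0.565% were higher and 0.524% lower, and nothing is read from these list counts.

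The same lists were compared between the libraries. Within activated CD4 T-like cells 0 of the 16 cytokine and chemokine genes measured were at least 1.5-fold higher in Tdg_KO and 5 were lower, where 7.15% of all genes were higher and 2.58% lower. Their median log2 ratio was -0.26, beside 0.09 for all genes. The 5 were Il2, Csf2, Ccl1, Ccl4 and Areg. Ccl1 stood at 1065 CPM in Tdg_KO and 2499 CPM in Tdg_WT, and Il2, the T cell growth factor, at 6.57 and 67.1 CPM. In Tdg_KO 1 barcode of 38266 UMIs gave 592 of the Ccl1 UMIs, where the subset had 1673921 UMIs of all genes. Beside these values, the unnamed cluster led by Il2 and Foxp3, with Ccl1 and Ifng among its leading genes, held 183 Tdg_KO and 93 Tdg_WT cells. Its part in the difference was not tested. Of 14 TNF family genes, against these same shares, Cd27 and Tnfsf4 were higher and Tnfrsf9, Tnfsf9 and Cd70 lower, and 0 of the 16 antigen-response transcription factors, 8 AP-1 genes and 6 checkpoint genes lay past the fold. Tcf7, a transcription factor of naive and memory T cells, was higher, the only one of 7 genes of that list past it. Treg-like cells, where 3.13% of all genes were higher and 2.57% lower, had 4 of 15 cytokine genes higher (Il5, Ifng, Csf2 and Ccl1) and 2 lower (Il2 and Ccl4), so that Ccl1 and Csf2 lay past the fold in opposite directions in the 2 subsets, a difference that was not tested. Their TNF family genes had 3 of 12 higher (Tnfsf11, Tnfsf8 and Cd40lg) and 1 lower (Tnfrsf8), and 2 of 17 transcription factors, Nr4a2 and Egr3, were higher. Of 8 AP-1 genes Atf3 was higher, of 9 checkpoint genes Havcr2 and Nrn1 were lower, and of 9 naive and memory genes Igfbp4 was lower. Within CD8 T-like cells, where summed Penk was higher in Tdg_KO, Ccl1 was lower, at 53.9 CPM in Tdg_KO and 236 CPM in Tdg_WT.

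Genes whose level followed that of Penk were ranked over the 38 subset by library profiles of at least 50 cells, by Pearson r of log2(CPM + 1) over 9198 genes. The profiles share libraries, and the 2 of each subset are close to each other, so r is a description. Ccn4, a secreted matricellular protein, came first (r = 0.849), followed by Ctla4 (0.830), the inhibitory receptor of activated and regulatory T cells, Ciapin1 (0.830), Sdf4 (0.823), Ttc39c (0.810) and Tnfrsf4 (0.805), which encodes the costimulatory receptor OX40. Bcl2l1, the survival protein Bcl-xL, Igfbp7, Igflr1 and Sv2c followed, with r between 0.761 and 0.784. Ccn4 stood at 14.3 CPM in activated CD4 T-like cells of Tdg_KO and 18.5 CPM in those of Tdg_WT, at 11.9 and 7.33 CPM in Treg-like cells, and at 23.4 and 27.6 CPM in checkpoint-high CD8 T-like cells. Ctla4 differed from Penk in order, being higher in Treg-like cells, at 1142 CPM in Tdg_KO and 1312 CPM in Tdg_WT, than in activated CD4 T-like cells, at 533 and 526 CPM.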

How the data were processed

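Per the file headers, the authors made the deposited raw UMI counts per gene and barcode with Cell Ranger 6.0.1. The submitters' processing notes also name Seurat and mm10. The annotation is not given in the sources used here. In all, 52586319 UMIs lay in 5896 barcodes (Tdg_KO) and 39819010 in 5604 (Tdg_WT). Entries sharing a symbol were summed.

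Barcodes needed 200 or more genes and no more than 10% mitochondrial UMIs, and were normalised to 10000, then clustered in scanpy 1.11.5 (2000 variable genes without Penk, 30 principal components, 15 neighbours, Leiden resolution 1, lymphoid and other cells clustered again). Clusters were named from 25 marker sets. No name was given where T cell genes occurred with phagocyte or B cell genes in 50% or more of the barcodes, or, among lymphoid clusters, 25% held genes of 2 lymphocyte subsets. These limits, and the choice within a family of T cells by the markers among the 10 leading genes, were set after the clusters were seen. A doublet caller (Scrublet, expected rate 0.05) called 0 and 1 barcodes, so it did not work and no barcode was removed by it.

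Penk was summed per subset and library (CPM, exact Poisson intervals), shares have exact Clopper-Pearson intervals, their differences 95% Newcombe intervals from Wilson bounds and ratios exact conditional Poisson intervals. Thinning left out 365 Tdg_KO and 615 Tdg_WT cells below its depth. The limit that a count of 0 allows is 3 counts. For co-detection, 0.5 barcodes were added to each count. Named genes needed detection in at least 10% of Penk-positive barcodes of each library and were ranked by the lower of the 2 libraries' log2 ratios (10 first and 5 lowest in activated CD4 T-like cells, 5 first in Treg-like cells). Of the 5 lowest, 1 is not reported here. Lists and shares of all genes used genes in at least 10% of all barcodes, a filter chosen after a first look. Mitochondrial, ribosomal, haemoglobin, sex-linked, immunoglobulin, T cell receptor and unnamed genes were not named. List genes needed 50 UMIs between libraries, and profile genes 200. The steps were tested on simulated data. Penk, the 11 gene lists and the markers were chosen with earlier results of these data known.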

Additional observations from a re-analysis of the deposited data

Results flagged for a closer look

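The ratio of Penk, Tdg_KO over Tdg_WT, lay below 1 in activated CD4 T-like cells (0.860) and in Treg-like cells (0.749), and above 1 in CD8 T-like cells (2.38) and in checkpoint-high CD8 T-like cells (1.73). These values are set apart because subsets of the same 2 libraries lay on opposite sides of 1. The difference between subsets was not tested, since each group is 1 library. Without the 5 barcodes with most Penk UMIs in each library, the values were 1.09 in activated CD4 T-like, 0.703 in Treg-like, 0.859 in CD8 T-like and 3.37 in checkpoint-high CD8 T-like cells, so that only the Treg-like and checkpoint-high CD8 T-like cells stayed on the same side of 1.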

How the results depend on the processing

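In activated CD4 T-like cells the ratio of Penk (Tdg_KO over Tdg_WT, 0.860) was 0.712 after thinning to 2000 UMIs per cell, 0.736 with every cell weighted equally, 0.674 with gates on marker UMIs, 1.09 without the 5 richest barcodes of each library, 0.994 without the richest one and 0.618 with the mixed Il2 and Foxp3 cluster added. In Treg-like cells (0.749) it was 0.854 at Leiden resolution 0.5 and 0.907 with gates. In CD8 T-like cells (2.38) it was 1.44 after thinning, 1.10 with equal weights, 1.37 without the 5% highest doublet scores, 0.859 without the 5 richest barcodes, 0.722 with gates and 1.69 without the richest. In checkpoint-high CD8 T-like cells (1.73) it was 3.37 without the 5 richest barcodes. The other 24 ratios stayed within their counting intervals. The alternatives without the single richest barcode and with the mixed cluster were chosen after seeing the data. Leiden resolution 0.5 formed no checkpoint-high CD8 T-like class, and no gate was set for it. Thinning moved 6 of 14 shares of barcodes beyond their intervals, gates 2 of 8 and Leiden resolution 0.5 2 of 12. With gates the activated CD4 T-like shares were 15.2% in Tdg_KO and 16.04% in Tdg_WT. At resolution 0.5 the Treg-like share in Tdg_KO was 20.7%, and the CD8 T-like shares were 11.7% in Tdg_KO and 9.84% in Tdg_WT, the opposite order to 6.46% and 6.72%. After thinning the activated CD4 T-like shares also stood in the opposite order, at 19.3% in Tdg_KO and 18.4% in Tdg_WT. By summed CPM (10 CPM added) the lower log2 ratio of Gpr108 with Penk turned to -0.0156, and those of Rnf114, Ncmap and Ybx3 were 0.08, 0.02 and 0.22, against 1.12, 0.94 and 0.83 by shares of barcodes. The filter at 25% gave no value for the named genes, which all fell below it in a library, and the first genes it ranked shared 0 with them. The causes were not tested, beyond what leaving out barcodes shows. No paired analysis was possible because each group has 1 library. Counting error limits the values of NK-like, B-like and dendritic cells, with 0 to 85 Penk UMIs.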
